A study of Mus musculus with 18 samples.

Results

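The autophagy machinery was described at the level of mRNA in injured mouse kidneys as 39 genes listed by name, of 45706 genes in the count files. The genes were listed for their known function, and all 39 were found by their Ensembl identifiers. RNA was sequenced from whole kidneys of young adult male C57BL/6 mice (C57BL/6J in the study's methods) and their littermates, taken 12 h into reperfusion that followed 22.5 min of ischemia to both kidneys. All mice carried the Pax8rtTA transgene, which responds to doxycycline in tubule cells, and all received doxycycline, which was washed out before surgery. *Cxcl12* KO mice (n = 5) carried homozygous floxed *Cxcl12* and the TetOcre recombinase, and *Cxcl12* Control mice (n = 3) carried the floxed gene and Pax8rtTA without TetOcre. *Myc* KO mice (n = 5) and *Myc* Control mice (n = 5) had the same transgenes with homozygous floxed *Cmyc*. The Pax8 promoter directs recombination to the tubule, so that vessels, glomeruli, stroma and leukocytes in the same lysate keep the floxed gene. No uninjured kidney was analysed here, so the values describe the effect of each deletion in injured tissue and not the effect of injury.

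Autophagy encloses cytoplasm, protein aggregates and damaged organelles in a double membrane, the autophagosome, and delivers them to the lysosome. The ULK1 kinase complex starts the process, a lipid kinase complex marks the membrane with phosphatidylinositol 3-phosphate, and lipid transfer proteins enlarge it. Small ubiquitin-like proteins of the ATG8 family (LC3 and GABARAP) are then attached to the membrane and recruit cargo through receptors such as p62, and in the kidney tubule this pathway is known for its role after ischemic injury. Much of autophagy is set by phosphorylation, lipidation and protein turnover, which mRNA levels do not record.

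The reads that fell on genes numbered from 12918220 to 29749500 per kidney. In 6 kidneys (2 *Myc* KO, 2 *Myc* Control, 2 *Cxcl12* KO and 0 *Cxcl12* Control) under 5% of reads were unmapped, and these kidneys had at least 22437067 reads on genes against at most 18006784 in the others. The study's methods mention a calibration for batches with ComBat, but which kidneys shared a batch is not given in the sources used here. The deposited counts are not calibrated, and results are given within these groups of kidneys where they matter. The targeted genes were lower in KO kidneys of their own cohort. *Myc* spanned 26.6 to 37.0 CPM (reads of the gene relative to the library size, scaled by the TMM method) in *Myc* KO and 79.7 to 117.4 CPM in *Myc* Control kidneys, and *Cxcl12* spanned 26.3 to 40.9 CPM in *Cxcl12* KO and 44.9 to 60.5 CPM in *Cxcl12* Control kidneys. Markers of the kidney were present in every library, with 8 proximal tubule markers summing to between 8189 and 15059 CPM.

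All 39 autophagy genes were expressed in every kidney, the lowest raw count being 73 reads for *Atg10*, the enzyme that conjugates ATG12 to ATG5. Per kilobase of exon, the highest level belonged to *Sqstm1*, which encodes the cargo receptor p62, at 532 CPM per kb over the 18 kidneys. *Gabarapl1* (198 CPM per kb), *Vmp1* (126 CPM per kb), *Gabarap* (124 CPM per kb) and *Map1lc3a* (75.3 CPM per kb) followed. The order of these 5 genes was the same in *Cxcl12* KO, *Myc* KO and *Myc* Control kidneys. In *Cxcl12* Control kidneys *Gabarap* (121 ± 4.1 CPM per kb, SD, n = 3) stood above *Vmp1* (93.2 ± 5.6). In *Cxcl12* KO and *Myc* Control kidneys these neighbours differed by less than 1 SD of *Vmp1*, and in *Myc* KO kidneys *Vmp1* (137 ± 6.2 CPM per kb, SD, n = 5) stood above *Gabarap* (121 ± 5.0). The lowest level belonged to *Atg16l2*, a paralog of the ATG16L1 scaffold, at 0.889 CPM per kb, and it ranked last in all 4 groups. This order depends on the exon length, which merges the exons of all annotated transcripts. In CPM without it, *Atg10* (6.60 CPM) lay below *Atg16l2* (7.53 CPM). The genes of the lipid kinase and conjugation steps lay between 3.69 and 19.9 CPM per kb, apart from *Atg16l2*. Reads over exons shared with another gene were set aside as ambiguous in the unstranded counts (2.26% to 2.52% of reads per kidney), so that the levels of *Becn1* (43.9% of exon bases shared), *Atg9a* (32.6%), *Gabarapl1* (28.3%), *Atg4d* (19.3%) and *Sqstm1* (17.3%) may be understated.

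**Figure D1:**
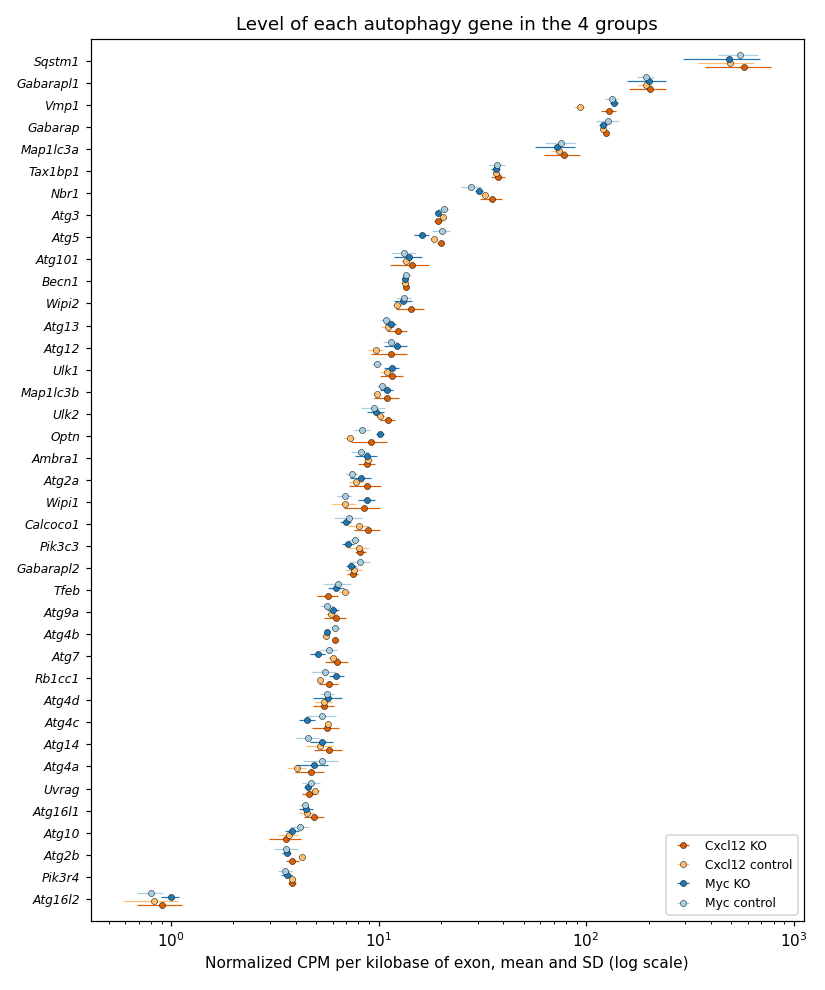
Level of each of the 39 autophagy genes in CPM per kilobase of exon (log axis), as the means of the 4 groups, ordered by the mean over 18 kidneys. *Sqstm1* at 532 CPM per kb stands above the other genes and *Atg16l2* at 0.889 below them, and the 4 group means of a gene lie close together against the range between genes.

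The question of whether tubular loss of *Myc* or *Cxcl12* shifts this gene program was addressed by comparing KO with control kidneys within each cohort. No autophagy gene passed an adjusted p of 0.05 in edgeR's quasi-likelihood test after deletion of *Myc* (0 of 39, against 1.65% of the 14936 genes tested) or of *Cxcl12* (0 of 39, against 0% of 15154 genes). At an unadjusted p under 0.05, 5 of 39 autophagy genes (12.8%) passed in the *Myc* cohort against 21.9% of all genes, and 3 of 39 (7.69%) in the *Cxcl12* cohort against 13.0%. DESeq2 called 4 autophagy genes (10.3%) after *Myc* deletion against 7.57% of all genes, and 1 (2.56%) after *Cxcl12* deletion against 2.33%. The voom method of limma called 0 in either cohort, against 1.44% and 0% of all genes. These shares of called members lay near or below those of the transcriptome in all of these tests.

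The intervals of the members were narrow beside those of all genes, which were not matched to them for read counts. After *Myc* deletion, the 95% confidence interval of the fold change lay within 1.5-fold in either direction for 38 of 39 autophagy genes, against 63.9% of all genes tested, the exception being *Sqstm1*. After *Cxcl12* deletion this held for 34 of 39, against 61.3% of all genes, and the exceptions were *Sqstm1*, *Vmp1*, *Wipi1*, *Optn* and *Atg16l2*. The median log2 fold change of the 39 genes was 0.021 after *Myc* deletion, with 21 genes higher and 18 lower, beside -0.00083 over all genes. After *Cxcl12* deletion it was 0.083, with 29 genes higher and 10 lower, beside 0.00083 over all genes.

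**Figure D2:**
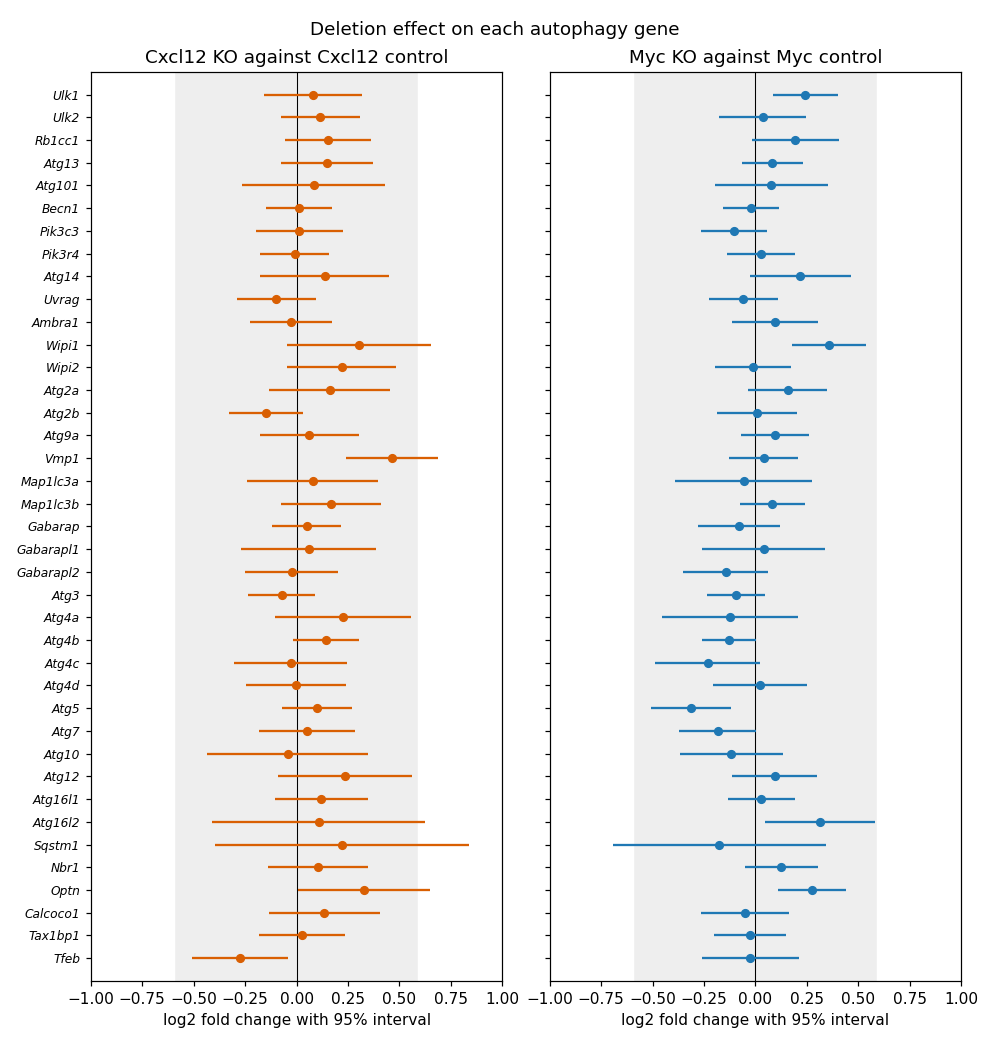
Log2 fold changes (KO against control) of the 39 autophagy genes after *Myc* and after *Cxcl12* deletion, with 95% confidence intervals from edgeR's quasi-likelihood fit, grouped by role. After *Myc* deletion only the interval of *Sqstm1* reaches beyond a 1.5-fold change, and no gene passed an adjusted p of 0.05 in either cohort.

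The ULK1 complex consists of the kinases ULK1 and ULK2, the scaffold FIP200 (encoded by *Rb1cc1*), ATG13 and ATG101. *Ulk1* measured 77.4, 80.0, 72.2, 80.1 and 66.2 CPM in the 5 *Myc* KO kidneys and 64.0, 60.5, 69.0, 60.3 and 63.9 CPM in the 5 *Myc* Control kidneys. All KO kidneys lay above the control mean, and the lowest KO kidney lay below the highest control kidney. The difference was 1.18-fold (95% confidence interval 1.06 to 1.32, adjusted p = 0.102). DESeq2 gave *Ulk1* an adjusted p of 0.0354, within a range of 0.0354 to 0.837 over 13 alternatives. The log2 fold change was 0.37 among the *Myc* kidneys with 5% or more unmapped reads and 0.065 among those under 5%. In the *Cxcl12* cohort *Ulk1* had 75.4 ± 9.5 CPM in KO (SD, n = 5) and 71.1 ± 5.2 CPM in Control kidneys (SD, n = 3), a log2 fold change of 0.079 (adjusted p = 0.787). *Rb1cc1* was the next largest difference of the complex after *Myc* deletion, with 92.1 ± 7.7 against 80.7 ± 11.1 CPM (SD, n = 5 each, adjusted p = 0.267). All 5 genes of the complex had fold changes above 1 in both cohorts, and 0 of 5 passed edgeR's test in either. They ran from 0.035 to 0.24 log2 units after *Myc* deletion and from 0.079 to 0.15 after *Cxcl12* deletion. Of all 39 autophagy genes, 21 and 29 had fold changes above 1.

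The class III lipid kinase complex showed small differences. *Becn1*, which encodes the scaffold Beclin 1, had 94.5 ± 3.2 CPM in *Myc* KO, 96.1 ± 4.7 CPM in *Myc* Control, 95.9 ± 3.6 CPM in *Cxcl12* KO and 94.9 ± 3.9 CPM in *Cxcl12* Control kidneys. Its highest kidney exceeded its lowest by 1.13-fold over all 18. The counts leave out reads over the exon bases that it shares with *Cntd1* on the other strand. *Pik3c3*, the catalytic subunit VPS34, had log2 fold changes of -0.11 after *Myc* and 0.014 after *Cxcl12* deletion, and *Pik3r4*, its regulatory subunit VPS15, had 0.026 and -0.0092. *Uvrag*, which directs Beclin 1 complexes to later steps, had -0.059 and -0.097, and *Ambra1*, which links Beclin 1 to ULK1, had 0.094 and -0.027. *Atg14*, which targets the kinase to the forming autophagosome, was the largest of the 6, at 1.16-fold after *Myc* deletion (0.98 to 1.38, adjusted p = 0.278). None of the 6 genes had an unadjusted p under 0.05 in either cohort.

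Among the genes that act next on the growing membrane, *Wipi1* had the smallest p-value of all autophagy genes after *Myc* deletion. WIPI1 binds phosphatidylinositol 3-phosphate on the forming autophagosome. *Wipi1* measured 36.9, 40.2, 35.7, 44.4 and 36.3 CPM in *Myc* KO and 28.7, 27.8, 33.9, 30.8 and 30.1 CPM in *Myc* Control kidneys. Every KO kidney lay above every control kidney, a pattern found for 2 of 39 autophagy genes (5.13%) and for 2.05% of all genes, while 0 of 39 had every KO kidney below the controls against 3.92% of all genes. The difference was 1.28-fold (1.13 to 1.45, adjusted p = 0.0534). DESeq2 gave an adjusted p of 0.00589, and over 13 alternatives it ranged from 0.00589 to 0.612, with log2 fold changes from 0.21 to 0.46. Among the *Myc* kidneys with 5% or more unmapped reads (3 KO, 3 Control) the log2 fold change was 0.46, and among those under 5% (2 KO, 2 Control) it was 0.21.

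In the *Cxcl12* cohort *Wipi1* differed by a similar amount with a wider interval. It measured 40.1, 28.9, 30.6, 43.2 and 45.0 CPM in KO and 28.9, 27.1 and 35.0 CPM in Control kidneys, 1.23-fold (0.97 to 1.57, adjusted p = 0.447). The KO kidneys fell into 3 above and 2 within the span of the controls. *Wipi2*, the paralog that recruits ATG16L1, had log2 fold changes of -0.012 after *Myc* and 0.22 after *Cxcl12* deletion, without passing the test. The lipid transfer proteins encoded by *Atg2a* (0.16 and 0.16) and *Atg2b* (0.0067 and -0.15) and the scramblase encoded by *Atg9a* (0.093 and 0.062) did not pass either.

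*Vmp1* had the smallest p-value of the autophagy genes after *Cxcl12* deletion. VMP1 is a scramblase of the endoplasmic reticulum that is needed for autophagosome formation. The microRNA gene *Mir21a* lies within a *Vmp1* exon on the same strand, over 2.38% of the *Vmp1* exon bases. Reads there count for neither gene, and these data do not measure *Mir21a*. Reads of any longer precursor of it over the other exon bases would count for *Vmp1* and cannot be told apart here. *Vmp1* measured 495, 434, 497, 555 and 508 CPM in *Cxcl12* KO and 349, 346 and 385 CPM in *Cxcl12* Control kidneys. All 5 KO kidneys lay above all 3 controls, which was the case for 2 of 39 autophagy genes (5.13%) and 4.96% of all genes, and 0 of 39 lay wholly below against 4.72%. The difference was 1.38-fold (1.18 to 1.61), the largest of the 39, with an adjusted p of 0.106. DESeq2 gave an adjusted p of 0.000556, and the range over 12 alternatives was 0.000556 to 0.207. In edgeR's test with 1 kidney left out the adjusted p ran from 0.109 to 0.379. Among the kidneys with 5% or more unmapped reads (3 KO, 3 Control) the log2 fold change was 0.52 against 0.46 over all 8, and the remaining group held no control kidney.

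The *Cxcl12* Control kidneys were the group that stood apart for *Vmp1*. In the *Myc* cohort the gene measured 490, 551, 542, 522 and 532 CPM in KO and 453, 518, 531, 544 and 522 CPM in Control kidneys, 1.03-fold (0.92 to 1.16, adjusted p = 0.795). All 15 other kidneys lay above the 3 *Cxcl12* Control kidneys. A list of 7 injured tubule markers moved with this result, summing to between 14583 and 22681 CPM in *Cxcl12* KO and between 11880 and 13251 CPM in *Cxcl12* Control kidneys, and 6 neutrophil markers summed to between 29.3 and 130.9 CPM against 18.4 to 25.9 CPM. The 5 erythrocyte markers summed to between 36.1 and 163.4 CPM in KO and between 12.5 and 65.3 CPM in Control kidneys. All 8 proximal tubule markers and all 5 markers of the loop of Henle and distal tubule had fold changes below 1, with median log2 fold changes of -0.19 and -0.29, although the summed levels overlapped between the groups. Fold changes were also below 1 for 3 of 4 collecting duct markers (median -0.39), 5 of 6 fibroblast and pericyte markers (-0.21) and 5 of 6 macrophage markers (-0.096). They were above 1 for 5 of 5 podocyte markers (0.11) and 4 of 5 endothelial markers (0.14). No marker of these lists was at 0 in a whole group, none passed edgeR's test, and their part in the difference of *Vmp1* was not tested. In whole kidneys, fewer or more cells of a type and a change in RNA per cell cannot be told apart.

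**Figure D3:**
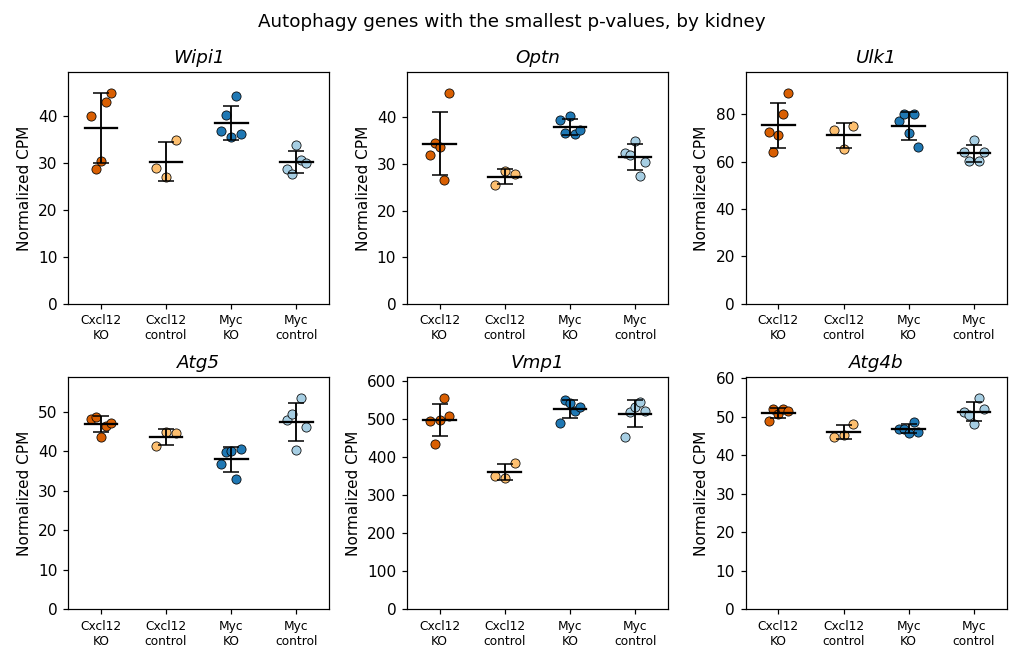
TMM-normalized CPM of *Wipi1*, *Optn*, *Ulk1*, *Atg5*, *Vmp1* and *Atg4b*, which had small p-values, in each of the 18 kidneys, as points with the group mean and SD. All *Myc* KO kidneys stand above all *Myc* Control kidneys for *Wipi1* and *Optn*, and the 3 *Cxcl12* Control kidneys stand below all others for *Vmp1*.

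The ATG8 family, whose lipidated proteins coat the autophagosome, had 0 of 5 genes past edgeR's test in either cohort. *Map1lc3b*, which encodes the LC3B protein used to mark autophagosomes, had 82.5 ± 6.2 CPM in *Myc* KO, 78.03 ± 4.4 CPM in *Myc* Control, 83.0 ± 11.3 CPM in *Cxcl12* KO and 73.7 ± 2.7 CPM in *Cxcl12* Control kidneys. The fold changes were 1.06 (0.95 to 1.18) and 1.12 (0.95 to 1.33), with adjusted p-values of 0.531 and 0.542. *Map1lc3a*, the LC3A gene, varied more between kidneys of a group than between groups, from 63.7 to 108.8 CPM in *Myc* KO and from 73.7 to 105.5 CPM in *Myc* Control kidneys. The GABARAP genes had log2 fold changes from -0.15 to 0.040 after *Myc* deletion and from -0.023 to 0.059 after *Cxcl12* deletion, with *Gabarapl2*, also known as GATE-16, as the lowest in both. The fold interval of all 5 family members lay within 1.5-fold in both cohorts.

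The conjugation enzymes that process ATG8 and build the ATG12-ATG5-ATG16L1 complex held the only autophagy gene that was lower after *Myc* deletion at an unadjusted p under 0.05. *Atg5*, whose product forms the core of that complex, measured 36.8, 39.8, 40.0, 33.0 and 40.6 CPM in *Myc* KO and 48.0, 49.3, 40.3, 53.5 and 46.1 CPM in *Myc* Control kidneys. All 5 KO kidneys lay below the control mean, and only the lowest control kidney, at 40.3 CPM, reached into the KO span. The difference was 0.804-fold (0.703 to 0.920, adjusted p = 0.0928). DESeq2 gave an adjusted p of 0.0278, within a range of 0.0263 to 0.735 over 13 alternatives. The log2 fold change was -0.43 among the *Myc* kidneys with 5% or more unmapped reads and -0.12 among those under 5%. In the *Cxcl12* cohort *Atg5* had 46.8 ± 2.0 CPM in KO and 43.6 ± 2.0 CPM in Control kidneys, 1.07-fold (0.95 to 1.21, adjusted p = 0.605).

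The other conjugation genes showed the following values after *Myc* deletion. The protease gene *Atg4b* had 46.8 ± 1.1 against 51.3 ± 2.4 CPM (0.914-fold, 0.834 to 1.002, adjusted p = 0.237), and *Atg7*, the shared activating enzyme, had 35.4 ± 3.0 against 40.3 ± 3.9 CPM (0.880-fold, 0.773 to 1.003, adjusted p = 0.237). For *Atg4c*, a further protease gene, all 5 KO kidneys lay below the control mean as well (0.851-fold, 0.714 to 1.015, adjusted p = 0.264). *Atg3*, which transfers ATG8 to lipid, had 0.936-fold (0.850 to 1.031). In the other direction *Atg16l2* measured 9.65, 8.79, 8.19, 7.51 and 7.98 CPM in KO and 6.55, 6.95, 5.99, 6.10 and 8.36 CPM in Control kidneys (1.24-fold, 1.03 to 1.496, adjusted p = 0.175). Of the 11 conjugation genes, 7 were lower and 4 higher after *Myc* deletion, with a median log2 fold change of -0.12, and 4 were lower and 7 higher after *Cxcl12* deletion, with a median of 0.10. None passed edgeR's test in either cohort.

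In the *Cxcl12* cohort *Atg4b* was, beside *Vmp1*, the gene whose KO kidneys all lay above the controls. It measured 48.9, 51.9, 50.8, 52.0 and 51.4 CPM in KO and 44.8, 45.2 and 48.2 CPM in Control kidneys, 1.104-fold (0.99 to 1.23, adjusted p = 0.429). *Atg4b* was the least variable of the 39 genes within groups, with a pooled SD of 0.049 log2 units that was smaller than in all but 0.038% of all genes. For *Atg12*, the ubiquitin-like partner of ATG5, the log2 fold changes were 0.093 after *Myc* and 0.24 after *Cxcl12* deletion. *Atg16l1*, the membrane scaffold, had 0.029 and 0.12, *Atg4a* -0.12 and 0.23, *Atg4d* 0.021 and -0.0040, and *Atg10* -0.12 and -0.042.

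Because MYC binds the E-box letters CACGTG together with its partner MAX, and TFEB binds longer sites that contain them, these letters were sought in the RefSeq promoter windows on GRCm38.p6, from 250 bases before to 50 bases after each start site. The letters read the same on both strands. A window was at hand for 33 of the 39 genes, and 4 of these (12.1%) held CACGTG, against 8.09% of the 27025 genes in the table. They were *Atg3*, *Atg5*, *Atg7* and *Atg14*. The longer GTCACGTG, read on either strand and always containing the E-box, was present in 3 (*Atg3*, *Atg7* and *Atg14*, 9.09%) against 2.55% of all genes. The whole *Atg5* window is shown as the promoter of the gene that was lower after *Myc* deletion at an unadjusted p under 0.05 but did not pass the adjusted test, and the others as the E-box with its flanks, all on the gene's strand with CACGTG in capitals.
*Atg5* (chr10:44268089-44268388, plus strand): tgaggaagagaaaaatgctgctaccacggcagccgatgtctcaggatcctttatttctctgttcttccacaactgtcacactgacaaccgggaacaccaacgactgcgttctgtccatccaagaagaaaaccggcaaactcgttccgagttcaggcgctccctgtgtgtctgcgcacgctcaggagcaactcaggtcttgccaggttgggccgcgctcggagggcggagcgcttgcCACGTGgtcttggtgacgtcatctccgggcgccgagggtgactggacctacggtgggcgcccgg
*Atg3* (chr16:45158715-45158783, plus strand): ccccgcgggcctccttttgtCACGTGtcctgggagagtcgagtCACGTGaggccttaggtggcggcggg
*Atg7* (chr6:114670944-114670989, plus strand): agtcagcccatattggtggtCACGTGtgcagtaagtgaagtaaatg
*Atg14* (chr14:47568410-47568455, minus strand): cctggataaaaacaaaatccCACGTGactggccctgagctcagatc

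The E-box lay 14 bases before the start site in *Atg5*, 94 and 71 bases before it in *Atg3*, and 132 bases before it in *Atg7*, and in *Atg14* it spanned the start site, beginning 1 base before it. The RefSeq start sites of *Atg7* and *Atg14* lie inside the genes as annotated by GENCODE, not at their 5′ ends. The 4 genes with an E-box had log2 fold changes from -0.31 to 0.22 after *Myc* deletion, with 3 lower and a median of -0.14. The 29 genes without one ranged from -0.23 to 0.36, with 12 lower and a median of 0.026. The spans overlapped, and *Atg14*, whose E-box spans its start site, differed in the other direction from *Atg5*. After *Cxcl12* deletion the medians were 0.076 and 0.083. A match of letters does not show binding, and no binding was measured.

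Cargo receptors tie ubiquitinated proteins and organelles to LC3. *Optn*, which encodes optineurin, was the receptor with the smallest p-value in both cohorts. It measured 39.3, 36.7, 40.2, 36.4 and 37.3 CPM in *Myc* KO and 32.3, 32.0, 35.0, 27.3 and 30.4 CPM in *Myc* Control kidneys, so that every KO kidney lay above every control kidney. The difference was 1.21-fold (1.08 to 1.36, adjusted p = 0.0890). DESeq2 gave an adjusted p of 0.0254, and the range over 13 alternatives was 0.0254 to 0.592, with a log2 fold change of 0.33 among the kidneys with 5% or more unmapped reads and 0.21 among those under 5%. In the *Cxcl12* cohort *Optn* measured 31.9, 34.4, 33.7, 26.6 and 45.2 CPM in KO and 25.4, 28.5 and 27.9 CPM in Control kidneys, 1.26-fold (1.00 to 1.57, adjusted p = 0.376), with 4 of 5 KO kidneys above the controls.

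The sums of some markers of other cells lay higher in *Myc* KO than in *Myc* Control kidneys, with spans that overlapped. A list of 5 podocyte markers summed to between 722.6 and 822.1 CPM in *Myc* KO and between 427.7 and 744.8 CPM in *Myc* Control kidneys, 5 endothelial markers to between 576.7 and 801.7 CPM against 428.8 to 708.7 CPM, and 6 neutrophil markers to between 137.7 and 260.9 CPM against 42.6 to 226.5 CPM. The proximal tubule list spanned 8189 to 13646 CPM in *Myc* KO and 8910 to 13578 CPM in *Myc* Control kidneys. All 5 markers of the loop of Henle and distal tubule, 4 of 5 endothelial and 5 of 7 injured tubule markers had fold changes above 1. The injured tubule markers ran from -1.32 to 0.39 log2 units. At an unadjusted p under 0.05 in edgeR's test, 0 of these 7 were higher and 1 was lower. Fold changes were below 1 for 4 of 6 macrophage and 3 of 4 collecting duct markers. No marker of these lists was at 0 in a whole group, and none passed edgeR's test. The part of the markers in the values of *Wipi1*, *Optn*, *Ulk1* and *Atg5* was not tested.

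*Sqstm1* was both the most abundant and the most variable autophagy gene. It measured 2658, 1959, 1217, 1268 and 1105 CPM in *Myc* KO, 2343, 2257, 1670, 1501 and 1508 CPM in *Myc* Control, 1569, 2391, 1674, 1186 and 2871 CPM in *Cxcl12* KO, and 1106, 2059 and 1810 CPM in *Cxcl12* Control kidneys. The groups overlapped throughout, with values near 1100 CPM in 3 of the 4. The fold changes were 0.885 after *Myc* deletion (0.618 to 1.27, adjusted p = 0.695) and 1.17 after *Cxcl12* deletion (0.76 to 1.79, adjusted p = 0.767). The interval after *Cxcl12* deletion included a 1.5-fold rise, and that after *Myc* deletion a 1.5-fold fall. With 1 kidney left out, the log2 fold change of *Sqstm1* after *Cxcl12* deletion ran from -0.0014 (without Control replicate 1) to 0.41 (without Control replicate 2) around 0.22, and it was 0.034 without KO replicate 5. After *Myc* deletion it ran from -0.42 (without KO replicate 1) to -0.065 (without KO replicate 5) around -0.18. The direction after *Myc* deletion depended on the kidneys used, with a log2 fold change of 0.17 among those with 5% or more unmapped reads and -0.78 among those under 5%, neither past the threshold.

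The remaining receptors differed less. *Nbr1*, a receptor related to p62, had 210.0 ± 9.2 CPM in *Myc* KO and 192.7 ± 21.2 CPM in *Myc* Control kidneys (1.09-fold, 0.96 to 1.23), and 240.8 ± 29.5 against 223.1 ± 10.6 CPM in the *Cxcl12* cohort. *Tax1bp1*, a receptor for ubiquitinated cargo, had log2 fold changes of -0.027 and 0.026. *Calcoco1*, which serves the turnover of the endoplasmic reticulum, had -0.051 and 0.14. All 5 receptors had fold changes above 1 after *Cxcl12* deletion, as did 29 of all 39 autophagy genes, and 0 of 5 passed edgeR's test. *Cxcl12* KO replicate 5 held the highest value of its group for *Sqstm1*, *Optn*, *Nbr1* and *Tax1bp1*.

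**Figure D4:**
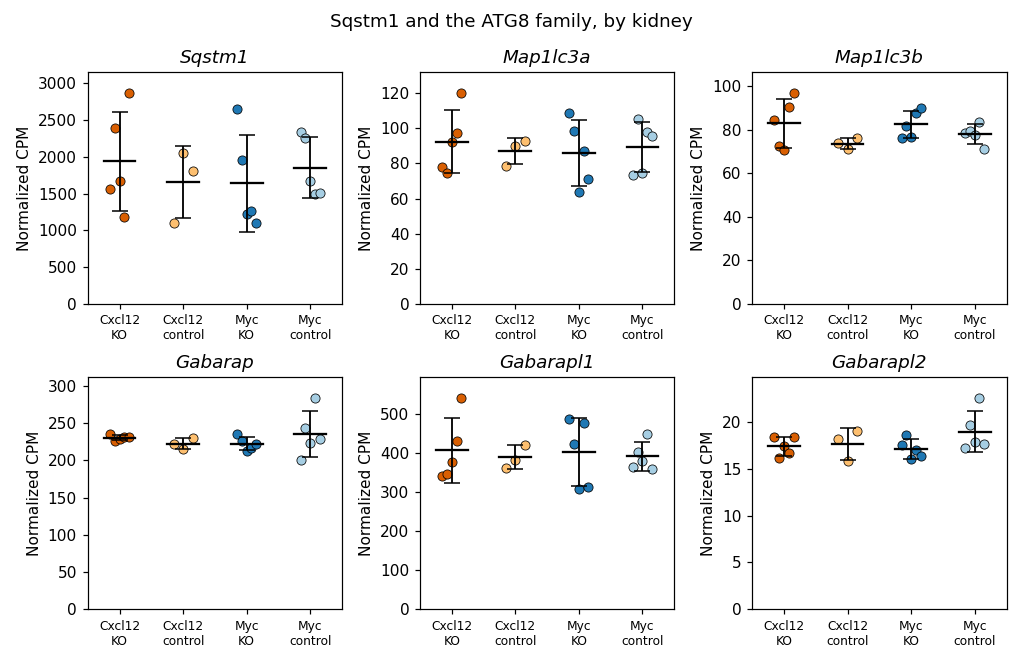
TMM-normalized CPM of *Sqstm1* and the 5 genes of the ATG8 family in each of the 18 kidneys, as points with the group mean and SD. *Sqstm1* runs from 1105 to 2871 CPM with all 4 groups overlapping, while *Gabarap* and *Map1lc3b* stay within narrow bands.

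*Tfeb* encodes a transcription factor that induces lysosomal and autophagy genes. It measured 31.4, 34.5, 37.7, 29.0 and 28.9 CPM in *Cxcl12* KO and 36.3, 40.2 and 40.3 CPM in *Cxcl12* Control kidneys, with every KO kidney below the control mean and 1 above the lowest control. The difference was 0.827-fold (0.704 to 0.971, adjusted p = 0.318), the lowest fold change of the 39 genes in that cohort. After *Myc* deletion *Tfeb* had 35.5 ± 3.2 against 36.1 ± 5.5 CPM (SD, n = 5 each, adjusted p = 0.917). The genes of 38 lysosomal proteins, many of them known targets of TFEB, had a median log2 fold change of -0.035 after *Cxcl12* and -0.11 after *Myc* deletion. Of these, 23 and 28 were lower, and 0 of 38 passed edgeR's test in either cohort.

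A single kidney carried much of the upward lean of the *Cxcl12* comparison. *Cxcl12* KO replicate 5 held the highest value of its group for 23 of the 39 genes, among them *Sqstm1*, *Gabarapl1*, *Map1lc3a*, *Ulk1*, *Wipi1* and *Optn*, and *Cxcl12* Control replicate 3 held the highest of its group for 28. Without *Cxcl12* KO replicate 5 the median log2 fold change of the autophagy genes was 0.034 and 22 of 39 were higher. Without any other kidney of the cohort the median stayed between 0.055 and 0.119. In the *Myc* cohort no kidney held the highest value for more than 15 of the 39 genes, and medians without 1 kidney ran from -0.016 to 0.021.

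Within groups, most autophagy genes varied less than the median of all genes tested. Those genes were not matched to them for read counts, on which such a spread depends. The pooled SD was taken on log2 CPM after adding 1 to each CPM, which narrows the spread of genes with low counts. It had a median of 0.14 over the 39 genes and 0.19 over 15903 genes, and 30 of 39 lay below the median of all genes. Over all 18 kidneys, 37 of 39 genes varied by less than 2-fold from lowest to highest. *Sqstm1* was the exception with a 2.60-fold span and a pooled SD of 0.47, larger than in 96.9% of all genes, and *Atg16l2* spanned 2.05-fold at low counts. *Map1lc3a*, *Atg16l2* and *Gabarapl1* followed *Sqstm1* in pooled SD, at 0.26, 0.25 and 0.24.

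Whether the deletions differed in their effect was tested as the difference of the log2 fold changes (*Myc* minus *Cxcl12*) over all 18 kidneys. No autophagy gene passed in edgeR's test (0 of 39, against 0.0692% of 15903 genes), and 3 (7.69%) had an unadjusted p under 0.05 against 11.4% of all genes. These were *Vmp1* with a difference of -0.43 (95% confidence interval -0.67 to -0.19, adjusted p = 0.114), *Atg5* with -0.42 (-0.67 to -0.17, adjusted p = 0.129) and *Atg4b* with -0.28 (-0.45 to -0.11, adjusted p = 0.145). DESeq2 called the same 3 genes (7.69%, against 2.04% of all genes), with adjusted p-values of 0.00503, 0.0316 and 0.0247, whereas voom called 0 against 0.0189%. Over 11 alternatives the adjusted p reached 0.399 for *Vmp1*, 0.455 for *Atg5* and 0.472 for *Atg4b*. For *Atg4b* and *Atg5* the fold changes were below 1 in the *Myc* cohort and above 1 in the *Cxcl12* cohort, and for *Vmp1* they were above 1 in both. The difference had a median of -0.059 over the 39 genes, with 26 below 0, beside -0.007 over all genes, and its interval stayed within 1.5-fold for 33 of 39.

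Genes around the core machinery gave the same picture of calls. Of 16 further autophagy genes, 10 mitophagy receptors and regulators, 25 genes of nutrient and energy sensing and the 38 lysosomal genes, 0 of 89 passed edgeR's test in either cohort or in the difference. At an unadjusted p under 0.05 there were 11 in the *Myc* cohort (6 higher, 5 lower) and 3 in the *Cxcl12* cohort (0 higher, 3 lower), or 12.4% and 3.37% against the 21.9% and 13.0% of all genes given above. Mitophagy genes had a median log2 fold change of -0.076 after *Myc* and -0.026 after *Cxcl12* deletion. Genes of nutrient and energy sensing, which lie upstream of ULK1, had medians of 0.033 and -0.021, with 18 of 25 and 12 of 25 higher.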

How the data were processed

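Whole kidneys of 18 mice were sequenced, and the labels number each kidney as a separate replicate of its group. The authors trimmed the reads and aligned them to GRCm38, and the submitters' processing notes name Trimmomatic 0.32 and STAR 2.4.0. The raw counts per gene were deposited by the authors without normalization, and the release of the gene annotation is not given in the sources used here. Counts were taken from the unstranded column. Totals on genes ran from 12918220 to 29749500 reads per kidney. Gene names, positions and exon lengths were taken from GENCODE vM21, which matched 45143 of 45706 identifiers, and promoters from RefSeq on GRCm38.p6.

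In edgeR 4.0.16 (R 4.3.3), filterByExpr removed low genes per cohort, TMM set the library sizes, and KO was compared with control by the quasi-likelihood test, with Benjamini-Hochberg adjustment over all genes tested and a threshold of 0.05. All 18 kidneys entered the fit of the difference between the deletions. Standard errors were the log2 fold change divided by the square root of F, and 95% intervals used the t distribution of the fit. Levels between genes were compared per kilobase of exon, with the exons of all annotated transcripts of a gene merged. The pipeline was tested on simulated data. Alternatives were RLE and upper-quartile scaling, DESeq2 1.42.0, voom of limma 3.58.1, other filters on low counts (none, or 1 CPM in 3 kidneys), all 18 kidneys in the fit, a replicate block, a term for kidneys under 5% unmapped reads, the strand columns, each kidney left out, and, added after the data had been seen, only the kidneys on either side of that 5% limit. The numbers of alternatives given beside single genes do not include the fits with 1 kidney left out. Figures were drawn with matplotlib 3.10.9.

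All 39 genes of the list are named. Genes of the 4 surrounding lists were to be named only with an adjusted p under 0.05, which none had, and cell type markers are given as sums. The members and lists were chosen with earlier results of these data known.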

Additional observations from a re-analysis of the deposited data

Results flagged for a closer look

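In 3 of 117 groups of 5 kidneys of a single gene, the kidney at the end of the range stood apart from the others by more than Dixon's 95% critical value, where chance alone would give about 5.85. *Atg101*, a subunit of the ULK1 complex, had 16.2 CPM in *Myc* Control replicate 1 against 21.8 to 24.1 CPM in the other 4 kidneys of the group. *Atg3*, the enzyme that transfers ATG8 to lipid, had 66.3 CPM in *Cxcl12* KO replicate 3 against 59.6 to 60.3 CPM. *Atg16l1*, the scaffold of the conjugation complex, had 56.7 CPM in *Cxcl12* KO replicate 5 against 44.4 to 45.4 CPM. Each lay in a different kidney, and *Cxcl12* KO replicate 5 was also the kidney with the highest value of its group for 23 of the 39 autophagy genes.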

How the results depend on the processing

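No fold change of an autophagy gene that passed a test under any setting turned its direction in that comparison. The number of autophagy genes called rose from 0 under a few settings. After *Myc* deletion it was 4 with DESeq2 (*Wipi1*, *Optn*, *Atg5*, *Ulk1*), 2 with the term for kidneys under 5% unmapped reads (*Wipi1*, *Optn*), 1 with all 18 kidneys in the fit (*Atg5*) and 0 to 3 with 1 kidney left out, the 3 being *Wipi1*, *Atg5* and *Optn* without *Myc* Control replicate 3 (adjusted p = 0.0274, 0.0315 and 0.0416). After *Cxcl12* deletion *Vmp1* was the 1 gene called with DESeq2 and the 1 gene with all 18 kidneys in the fit (adjusted p = 0.0377). In the difference, DESeq2 called 3.

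Over all genes, the 246 calls after *Myc* deletion became 1131 with DESeq2, 683 with all 18 kidneys, 954 with the unmapped-read term, 8 and 0 among only the kidneys above and below 5% unmapped reads, and 21 to 877 with 1 kidney left out. The 0 calls after *Cxcl12* deletion became 353 with DESeq2, 214 without a filter on low counts, 25 with all 18 kidneys, 123 with the unmapped-read term, 9 with the first strand column, 80 among the kidneys with 5% or more unmapped reads, and 0 to 15 with 1 kidney left out. The 11 calls of the difference became 324 with DESeq2, 3 with voom, 6 with upper-quartile scaling, 133 with the unmapped-read term, 4 and 7 with the strand columns, 44 among the kidneys with 5% or more unmapped reads, and 1 to 75 with 1 kidney left out. Some of these fits held fewer kidneys, and why the counts moved in either direction was not tested.

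With a replicate block the *Myc* calls over all genes fell to 18 and those of the difference to 1, and 0 autophagy genes were called in either cohort. Under the replicate block the log2 fold change of *Wipi1* after *Myc* deletion was 0.35 (adjusted p = 0.114). *Cxcl12* KO replicates 4 and 5 have no control kidney of the same number, so the block takes them up entirely. The *Cxcl12* effect in this fit, also within the difference, thus compares only KO and Control replicates 1 to 3. The median of the 39 genes after *Cxcl12* deletion was then -0.003, with 19 of 39 higher. Blocking cannot be told apart here from leaving out these kidneys. Deviations of kidneys with the same number correlated between -0.19 and 0.32 in the *Myc* cohort (mean 0.057, 5 pairs). In the *Cxcl12* cohort they correlated between -0.060 and 0.20 (mean 0.085, 3 pairs). Kidneys with different numbers ran from -0.52 to 0.41 (mean -0.014) and from -0.19 to 0.23 (mean -0.021). The spans overlapped and the numbers were not taken to pair the kidneys, but so few pairs cannot exclude a pairing.

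The limits are the 3 *Cxcl12* Control kidneys, the absence of a control kidney under 5% unmapped reads in that cohort, and the reliance on mRNA of whole kidneys. The median standard error of the 39 log2 fold changes was 0.089 after *Myc* and 0.108 after *Cxcl12* deletion. For *Sqstm1* the pooled SD within groups (0.47 log2 units) exceeded the size of both log2 fold changes (-0.18 and 0.22).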
